A study of Mus musculus with 4 samples.

Results

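Endothelin, angiotensin and neuropeptide Y signalling was described through 7 of the 28692 genes in the count matrices, namely the ligand genes *Edn3* and *Edn1*, the receptor genes *Ednra* and *Ednrb*, the angiotensin precursor *Agt*, the angiotensin receptor *Agtr1a* and the neuropeptide Y receptor *Npy1r*. The genes were chosen by name, with earlier results of these data known. Their unique molecular identifiers (UMIs, 1 per captured transcript) were summed by intestine and by marker-gated cell class. The 4 single-cell libraries came from mesenchymal stromal cells (MSC) of the lamina propria, the connective tissue under the epithelium, of untreated female C57BL/6Nrj mice aged 8 to 10 weeks. There were 2 libraries of small intestine and 2 of colon, from 2 experiments with 3 pooled mice each, so that no value belongs to a single animal. Muscularis externa had been removed. The sorted cells lacked CD45, Ter119, EpCAM, CD31, BP3 and L1CAM and carried Itgb1.

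Endothelins are short peptides cut from larger precursors by endothelin-converting enzymes. EDNRA binds endothelin 1 and 2 over endothelin 3, whereas EDNRB binds the 3 peptides alike, and in vessel walls and smooth muscle these receptors act on calcium and contraction. In the gut, endothelin 3 and EDNRB are best known for the development of the enteric nervous system. Angiotensinogen, the product of *Agt*, is cut by renin and then by angiotensin-converting enzyme to angiotensin II, which acts on the type 1 receptor. Neuropeptide Y is released by sympathetic and enteric neurons, and its Y1 receptor, the product of *Npy1r*, mediates vasoconstriction.

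The members lie apart in the genome (GRCm38, GENCODE gene bounds). *Edn3* spans chr2:174760619-174784042 on the plus strand and *Edn1* chr13:42301476-42307990 on the plus strand. *Ednra* spans chr8:77663031-77724464 and *Ednrb* chr14:103814625-103844402, both on the minus strand. *Agt* spans chr8:124556534-124569706 on the minus strand, *Agtr1a* chr13:30336441-30382867 on the plus strand and *Npy1r* chr8:66697192-66706792 on the plus strand. Upstream sequence is shown for *Edn3*, *Ednrb* and *Agt*, a ligand, a receptor and a precursor that were each higher in PDGFRαhi FB than in the other MSC classes, as the 250 bases before the RefSeq start of each gene (GRCm38.p6), 5′ to 3′ on the strand of the gene. Capitals mark matches to the searched motifs TATAAA (the TATA box), CCAAT (the CCAAT box), GGGCGG (the GC box), TGANTCA (an AP-1 motif) and GTAAACA (a forkhead motif) and to the CArG box, read on both strands.
Edn3 (chr2:174760369-174760618, plus strand): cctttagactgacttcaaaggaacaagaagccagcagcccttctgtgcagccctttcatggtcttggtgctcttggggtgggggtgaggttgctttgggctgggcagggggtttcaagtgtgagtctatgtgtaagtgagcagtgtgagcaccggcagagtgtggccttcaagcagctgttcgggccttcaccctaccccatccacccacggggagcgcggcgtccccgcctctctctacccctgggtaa
Ednrb (chr14:103843702-103843951, minus strand): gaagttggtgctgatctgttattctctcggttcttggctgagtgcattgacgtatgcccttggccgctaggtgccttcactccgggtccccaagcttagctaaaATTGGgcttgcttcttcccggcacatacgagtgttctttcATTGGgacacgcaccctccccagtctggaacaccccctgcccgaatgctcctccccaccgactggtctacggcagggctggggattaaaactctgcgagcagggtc
Agt (chr8:124569707-124569956, minus strand): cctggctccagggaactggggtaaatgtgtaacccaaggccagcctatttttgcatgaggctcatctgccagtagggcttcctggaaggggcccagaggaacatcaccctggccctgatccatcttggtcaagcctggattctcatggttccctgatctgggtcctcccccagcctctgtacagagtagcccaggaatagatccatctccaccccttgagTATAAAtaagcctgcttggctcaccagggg
The *Agt* window held TATAAA at 30 bases before the start, a motif found in 12.4% of 32851 promoter windows of this length, and no CpG, against a median of 6 CpG over all windows. The *Ednrb* window lies inside the annotated gene bounds and outside its exons. It held CCAAT on the opposite strand, shown as ATTGG, at 146 and 106 bases before the start, and 11 CpG. CCAAT was found in 33.8% of windows. The *Edn3* window held no match to these letters and 7 CpG. GC content was 55.6% for *Agt*, 56.8% for *Ednrb* and 59.2% for *Edn3*, against a median of 52.4%. The other shares over all windows were 32.7% for GGGCGG, 6.75% for TGANTCA, 3.17% for GTAAACA and 1.47% for the CArG box. A match is a description of the letters and not of binding.

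Small intestine replicates 1 and 2 had 14341443 and 45640122 UMIs, and colon replicates 1 and 2 had 22076000 and 52269372. After filtering, 1823, 14781, 2399 and 12327 cells were kept, with median depths of 6968, 2758, 8810 and 3893 UMIs per cell. The 2 replicate 1 libraries were thus deeper per cell and smaller than the replicate 2 libraries. Between 0 and 69 cell barcodes were shared by any 2 libraries, the highest number between small intestine and colon replicate 2. Values are given below in the order small intestine replicate 1 and 2, then colon replicate 1 and 2. Levels are UMIs of the gene per 1000000 UMIs of the class in that library (CPM), which compare one gene between classes and libraries, and intervals on counts and shares cover counting error only.

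Each cell was placed in a class by its summed markers per 10000 UMIs. The classes were PDGFRαhi fibroblasts (FB), which lie under the epithelium, with 157, 1433, 613 and 3167 cells, and CD81+ FB, with 279, 2104, 212 and 2622 cells. All other FB, in which the Fgfr2+, Igfbp5+ and CD90+ FB of the study fall together, are called interstitial FB here, with 727, 10195, 850 and 4416 cells. In the study Igfbp5+ FB were a small intestinal subset and CD90+ FB a colonic one. The make-up of interstitial FB thus differed between the intestines. Smooth muscle cells (SMC) numbered 71, 251, 294 and 886, and pericytes 53, 20, 55 and 46. Endothelial cells left by the sort numbered 351, 1, 240 and 23, and interstitial cells of Cajal (ICC) 0, 0, 16 and 41. The markers summed here are the gate genes, so high levels in their own class follow from the gate. The summed CPM of the 7 pericyte markers was 5438 to 10800 in pericytes, and that of the 6 SMC markers was 5137 to 10210 in SMC. SMC also carried FB markers, with median interstitial FB markers of 46.3, 50.6, 7.93 and 6.81 per 10000 UMIs beside SMC markers of 75.7, 32.7, 99.1 and 80.8, and with pan-FB markers at 111 in small intestine replicate 2. In colonic PDGFRαhi FB the medians were 40.7 and 31.1 for their own markers and 45.0 and 32.0 for the interstitial ones, and in the small intestine 40.9 and 38.9 against 27.0 and 27.4. Cells near the limit of the PDGFRαhi gate were 0.823%, 2.95%, 3.71% and 4.91% of all cells. In 91 immune cells of small intestine replicate 1, which should lack these genes, *Ednrb* had a UMI in 1.1% of cells and the other members in 0%, at a median of 19471 UMIs per cell.

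**Figure D1:**
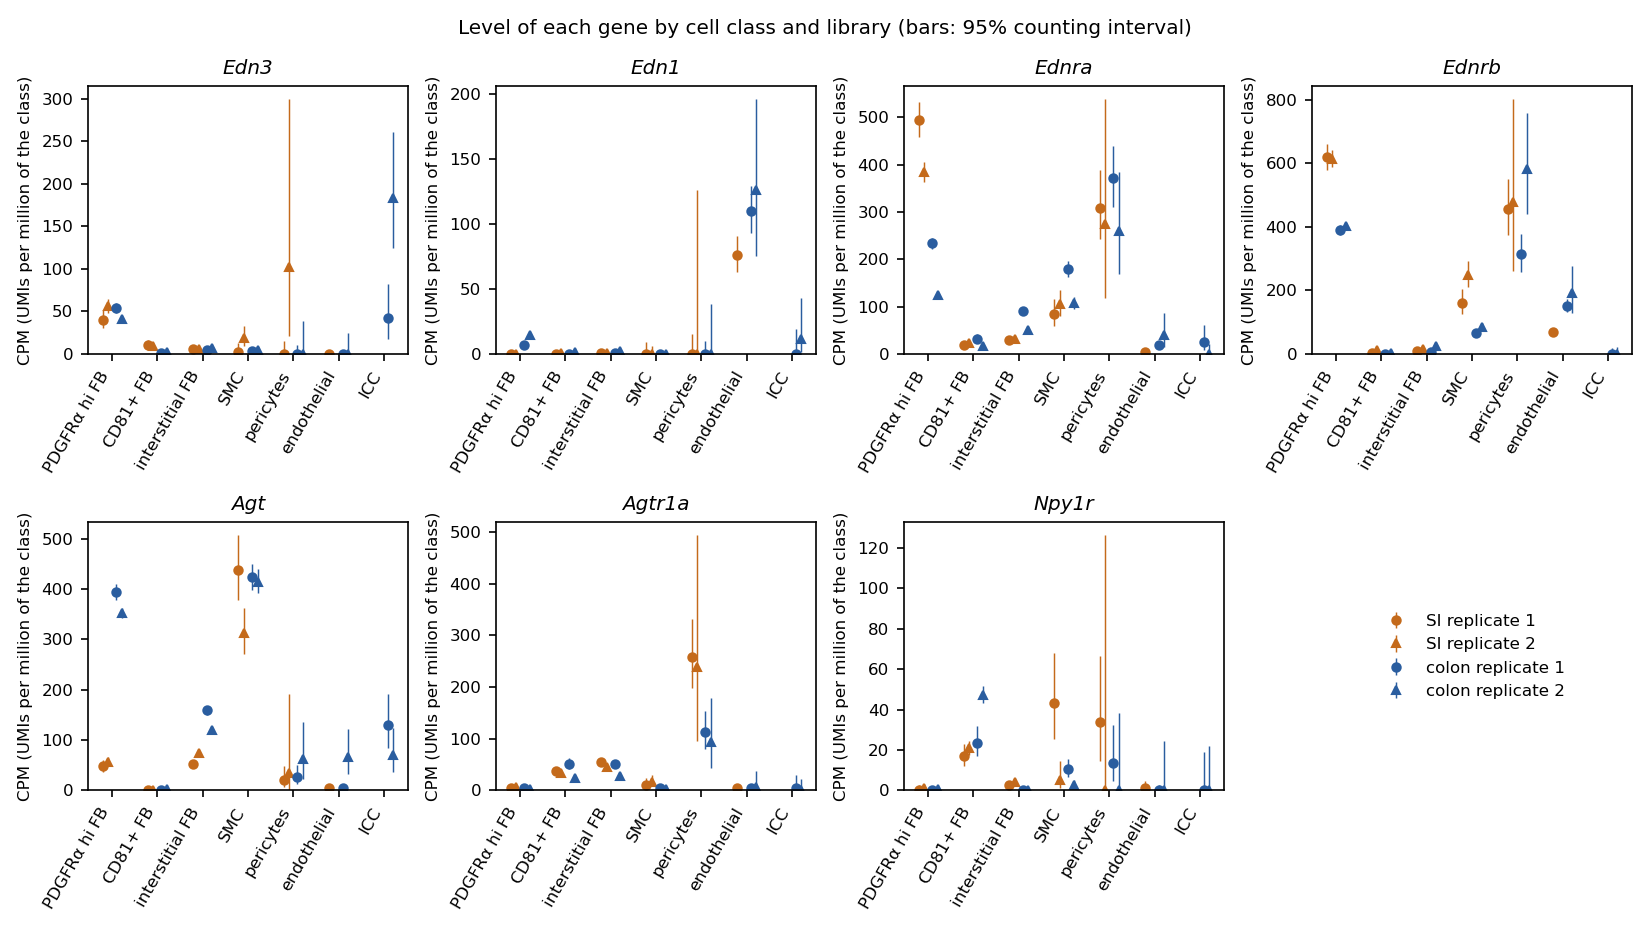
Levels of the 7 genes by cell class. Each panel is a gene, the x axis the class, and the y axis CPM, with 1 point per library, colored by intestine, and bars for the 95% counting interval. *Edn3* was 40.1 to 55.7 CPM in PDGFRαhi FB, above every other FB class, and *Agtr1a* was highest in pericytes, at 93.7 to 258.0 CPM.

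The members differed in level between the MSC classes, and only *Agt* (SMC) and *Agtr1a* (pericytes) had the same top class in all 4 libraries. Each class was tested against the mean of the other MSC classes with edgeR's quasi-likelihood test, with library as a block, and a gene was called at an adjusted p under 0.05 and a log2 difference beyond 1.5. In these comparisons 6 of the 7 members passed the filter on low counts, all but *Edn1*. In PDGFRαhi FB all 6 tested members were called, 4 higher and 2 lower, where 7.22% of all tested genes were called. In CD81+ FB 1 was higher and 3 lower (8.4% of all genes called), in interstitial FB 1 was lower (4.59%), in SMC 1 was higher and 1 lower (6.06%), and in pericytes 3 were higher (9.72%). The median log2 difference of the members was 1.93 in PDGFRαhi FB against 0.05 over all genes, and 1.83 in pericytes against -0.16. In CD81+ FB it was -1.48 against 0.03, in interstitial FB -0.96 against 0.05 and in SMC 0.52 against 0.04. These counts and medians are a description, since the members were chosen with earlier results of these data known.

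*Edn3*, the endothelin 3 precursor, was found mainly in PDGFRαhi FB, at 40.1, 55.7, 54.0 and 40.9 CPM (56, 188, 358 and 530 UMIs). These values overlapped between the intestines. CD81+ FB had 11, 9.65, 0.561 and 2.44 CPM, and interstitial FB 5.95, 5.45, 4.02 and 6.81 CPM. SMC had between 2.4 and 18.3 CPM on 34 UMIs. No *Edn3* UMI was seen in pericytes of 3 libraries, nor in the 351, 240 and 23 endothelial cells, and the 102.6 CPM of pericytes of small intestine replicate 2 rest on 3 UMIs. PDGFRαhi FB thus stood above every other FB class in each library, while the lower classes overlapped each other. Against the other MSC classes *Edn3* was higher in PDGFRαhi FB by 3.05 on the log2 scale (SE 0.41, edgeR adjusted p = 7.08e-05).

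The 16 and 41 colonic ICC had 41.6 and 183.4 CPM of *Edn3* on 8 and 31 UMIs. Of all *Edn3* UMIs, PDGFRαhi FB held 44.4%, 42.8%, 87.3% and 70.4%. Interstitial FB held 26.2%, 36.4%, 7.56% and 16.5%, and CD81+ FB 21.4%, 14.6%, 0.244% and 3.45%. PDGFRαhi FB were 8.61% and 9.69% of small intestinal cells and 25.6% and 25.7% of colonic cells. The small intestinal CD81+ FB values lay above both colonic ones, but the log2 difference of colon against small intestine, -2.58 (SE 0.55), did not pass (edgeR adjusted p = 0.163). It passed with DESeq2 (-2.69, adjusted p = 0.0493).

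In PDGFRαhi FB an *Edn3* UMI was found in 23.6%, 11.3%, 30.7% and 13.0% of cells. After each cell was thinned to 1000 UMIs, these shares were 5.1%, 5.09%, 5.87% and 4.55%. The difference in shares between the replicate 1 and replicate 2 libraries was thus not seen at equal depth.

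*Edn1*, the endothelin 1 precursor, is classically made by endothelium, and the few endothelial cells in these libraries carried it at 76.1, 110.1 and 125.8 CPM (small intestine replicate 1 and colon replicates 1 and 2, on 123, 147 and 19 UMIs). Among the MSC classes colonic PDGFRαhi FB had the highest level, at 6.63 and 14.2 CPM on 44 and 184 UMIs. In small intestinal PDGFRαhi FB 0 UMIs were found in 157 and 1433 cells, which by the limit of 3 counts allows a share of cells with a UMI of up to 1.91% and 0.209%. The colonic level was at least 18.5-fold higher than the floor of 3 UMIs over both small intestinal libraries. This bound was 5.42-fold when small intestine replicate 2 was left out, and 10.6-fold when colon replicate 2 was left out. Of the colonic PDGFRαhi UMIs, 41 and 170 lay in cells with more *Nrg1* than *Sox6*, *Wif1* and *Bmp3* UMIs. Only 1 and 29 small intestinal PDGFRαhi FB were such cells, and the part of this mix in the bound was not tested. Interstitial FB had 0.541, 0.374, 0.908 and 2.58 CPM, while SMC and pericytes had 0 UMIs in all 4 libraries.

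In PDGFRαhi FB *Edn1* was kept by the low-count filter through the colonic libraries alone, so its test adds no support to the bound. The test of *Edn1* in PDGFRαhi FB did not pass in colon against small intestine (edgeR adjusted p = 0.0946). It passed with DESeq2 (adjusted p = 0.00108), without the low-count filter (adjusted p = 5.02e-05) and without colon replicate 1 (adjusted p = 0.00205). The gate had moved cells with 2 or more of the 6 endothelial markers out of the FB classes. Their low level in PDGFRαhi FB thus follows in part from the gate, and the part of endothelial RNA in *Edn1* was not tested. Endothelial markers were near 0 in PDGFRαhi FB. Their summed level there was 3.58, 6.82, 3.47 and 5.87 CPM, against 3171 to 5966 CPM in the endothelial cells of the 3 libraries that held over 20 of them, with 2, 4, 4 and 4 of the 6 markers detected and *Cdh5* at 0 in all 4. An *Edn1* UMI was seen in 2.61% (95% Clopper-Pearson interval 1.5 to 4.2) and 3.32% (2.72 to 4.0) of colonic PDGFRαhi FB.

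*Ednra*, the receptor that prefers endothelin 1, was high in both PDGFRαhi FB and pericytes. PDGFRαhi FB had 493.7, 383.6, 233.3 and 123.9 CPM, and pericytes 308.7, 273.6, 371.3 and 260.4 CPM. Within PDGFRαhi FB the small intestinal libraries did not overlap the colonic ones, while the pericyte values did. SMC followed with 83.9, 105.1, 179.0 and 107.2 CPM, which overlapped the lowest PDGFRαhi value. Interstitial FB had 28.7, 31.5, 90.1 and 49.7 CPM, and CD81+ FB had the lowest values of the MSC classes, at 17.9, 22.9, 32.0 and 17.5 CPM. Against the other MSC classes *Ednra* was higher in PDGFRαhi FB by 1.82 (SE 0.26, edgeR adjusted p = 0.000112) and in pericytes by 1.74 (SE 0.33, adjusted p = 0.00116), and lower in CD81+ FB by -2.47 (SE 0.34, adjusted p = 4.77e-05) on the log2 scale. The PDGFRαhi value fell to 1.45, inside the limit of 1.5, without small intestine replicate 1. The pericyte value was 1.31 when cells were classed by Leiden clusters of each library (adjusted p = 0.152).

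*Ednra* had estimates of opposite sign between the intestines in PDGFRαhi and interstitial FB, with 0.06 on the log2 scale in CD81+ FB. In PDGFRαhi FB the log2 difference of colon against small intestine was -1.19 (SE 0.37, edgeR adjusted p = 0.265), and within replicate numbers 1 and 2 the log2 CPM ratios were -1.08 and -1.63. In interstitial FB it was 1.17 (SE 0.32, adjusted p = 0.296), with ratios of 1.65 and 0.66. Neither passed alone, but their difference did, at -2.30 (SE 0.16, adjusted p = 3.67e-08), where 9.75% of all genes passed this test of the difference. Pericyte markers moved with the PDGFRαhi values. The summed level of the 7 pericyte markers in PDGFRαhi FB was 1172 and 927.5 CPM in small intestine and 152.4 and 126.0 CPM in colon, with 6, 7, 7 and 7 of them detected and *Notch3* at 0 in small intestine replicate 1. The same sum was 957.7 and 840.5 against 104.4 and 87.7 CPM in interstitial FB, where *Ednra* was higher in the colon. The part of pericyte RNA in these levels was not tested.

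*Ednrb*, the receptor that binds all endothelins, was high in PDGFRαhi FB and pericytes. PDGFRαhi FB had 619.0, 614.2, 390.2 and 402.2 CPM, and pericytes 456.7, 478.8, 313.6 and 583.3 CPM. These classes overlapped each other, and both lay above the rest in each library. SMC had 160.5, 248.5, 64.2 and 85.2 CPM, and the endothelial cells 68.7, 151.3 and 192.0 CPM in the libraries other than small intestine replicate 2. Interstitial FB had 7.75, 16.7, 7.39 and 26.3 CPM and CD81+ FB 2.03, 12.7, 1.12 and 4.14 CPM. Interstitial FB lay above CD81+ FB in each library. On the log2 scale *Ednrb* was higher in PDGFRαhi FB by 3.39 (SE 0.28, edgeR adjusted p = 7.39e-07) and in pericytes by 3.15 (SE 0.34, adjusted p = 9.56e-06). It was lower in CD81+ FB by -4.55 (SE 0.46, adjusted p = 3.53e-06) and in interstitial FB by -2.85 (SE 0.39, adjusted p = 0.000147).

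Both small intestinal PDGFRαhi values of *Ednrb* were above both colonic ones, but the log2 difference, -0.51 (SE 0.26), did not pass (edgeR adjusted p = 0.594). In SMC the small intestinal values were also the higher ones, with a log2 difference of -1.40 (SE 0.36, adjusted p = 0.314). In these SMC the summed pericyte markers were 1850 and 889.0 CPM in small intestine and 997.9 and 479.8 CPM in colon, and the interstitial FB markers were also higher in small intestine, as given above. The part of either in the result was not tested. Of all *Ednrb* UMIs, PDGFRαhi FB held 67.2%, 71.7%, 82.5% and 83.5%.

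Cells with both receptors were common among PDGFRαhi FB. Among PDGFRαhi FB with an *Ednra* UMI, 88.1%, 61.9%, 71.1% and 61.0% also had an *Ednrb* UMI, against 50%, 47.9%, 68.9% and 55.7% of those without. Cells with *Ednra* were also deeper, with medians of 9755, 2345, 10504 and 4083 UMIs against 3218, 1970.5, 9539 and 3783, so that depth moved with the pairing. The 95% intervals of the shares with and without *Ednra* overlapped in colon replicate 1. In PDGFRαhi FB with *Edn3*, *Ednrb* was found in 61.2% and 44.7% of colonic cells, against 74.8% and 59.6% of those without, at median depths of 10224 and 3744 UMIs against 10458 and 3903. In the small intestine the shares were 89.2% and 61.1% with *Edn3* and 80.8% and 54.7% without, with intervals that overlapped and with deeper cells in the group with *Edn3* (10076 and 2380.5 against 8928 and 2151 UMIs). *Ednra* was found in 97.3%, 62.3%, 92.0% and 50.2% of PDGFRαhi FB with *Edn3* and in 82.5%, 52.6%, 75.5% and 33.4% of those without. Cells with *Edn3* thus had *Ednra* more often in the colon, where they had *Ednrb* less often, as counted in these cells and with no test over libraries.

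**Figure D2:**
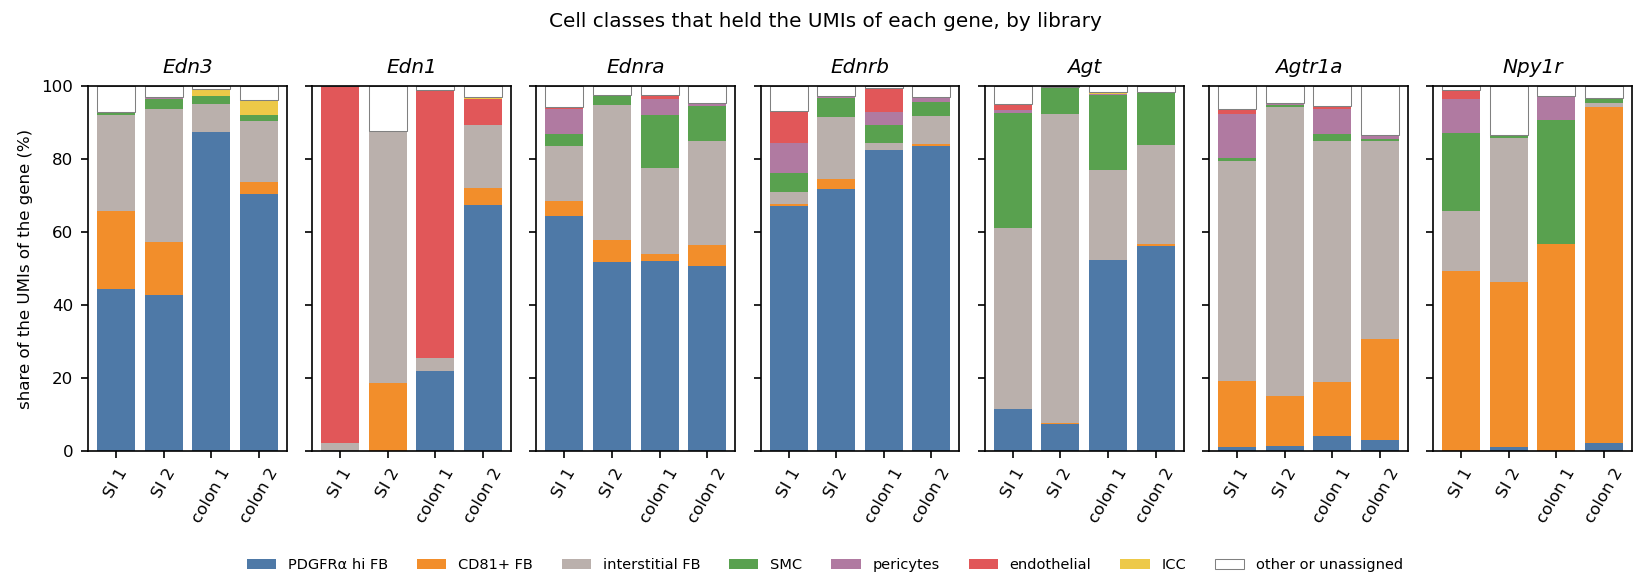
Share of the UMIs of each gene by cell class, for each library. The y axis is the percent of the UMIs of the gene in the library, and colors are classes. In colon replicates 1 and 2, PDGFRαhi FB held 82.5% and 83.5% of *Ednrb* UMIs and 52.4% and 56.2% of *Agt* UMIs, while in small intestine interstitial FB held 49.6% and 84.5% of *Agt* UMIs.

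*Agt*, the precursor of all angiotensin peptides, was highest in SMC in each library, at 438.5, 313.6, 422.9 and 414.7 CPM, and the log2 difference of colon against small intestine there was 0.21 (SE 0.32, edgeR adjusted p = 0.976). PDGFRαhi FB had 47.9 and 57.2 CPM in small intestine and 393.9 and 352.8 CPM in colon, on 67, 193, 2612 and 4569 UMIs. The colonic values thus reached the range of SMC, while the small intestinal ones did not. Interstitial FB had 51.9, 74.4, 159.0 and 120.8 CPM. CD81+ FB stood far below all of them, at 0, 1.51, 1.68 and 3.67 CPM, and pericytes had 21.1 to 62.5 CPM on 1 to 10 UMIs. *Agt* was higher in SMC by 3.72 on the log2 scale (SE 0.35, edgeR adjusted p = 3.43e-06) and in PDGFRαhi FB by 2.04 (SE 0.36, adjusted p = 0.000872), and lower in CD81+ FB by -5.66 (SE 0.60, adjusted p = 6.65e-06).

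In the main edgeR fit *Agt* in PDGFRαhi FB was the only member called between the intestines. It was higher in colon by 2.95 (SE 0.28, edgeR adjusted p = 0.026) on the log2 scale, and by 3.04 and 2.62 as log2 CPM ratios within replicate numbers 1 and 2. Among PDGFRαhi FB 1 of 6 tested members was called, against 1.45% of all genes. Leaving out small intestine replicate 1 gave 2.81 (adjusted p = 0.0865), and leaving out small intestine replicate 2 gave an adjusted p of 0.0838, so the call needed both small intestinal libraries. The share of PDGFRαhi FB with an *Agt* UMI was 19.7%, 10.2%, 54.8% and 46.2%, and 2.55%, 5.65%, 22.2% and 22.8% after thinning to 1000 UMIs. SMC markers were lower in the colonic PDGFRαhi FB, with summed levels of 498.7, 448.5, 156.5 and 154.3 CPM. Of the 6 markers, 4, 6, 6 and 6 were detected (*Cnn1* and *Hhip* at 0 in small intestine replicate 1). Their part in the result was not tested. The make-up of the class differed too. PDGFRαhi FB with more *Nrg1* than *Sox6*, *Wif1* and *Bmp3* UMIs numbered 1, 29, 209 and 1143. In the colon these cells had *Agt* at 800.8 and 595.9 CPM. Cells with the reverse had 38.4, 46.2, 111.3 and 114.8 CPM, so the colonic values were still the higher ones. The part of this mix in the log2 difference of 2.95 was not tested.

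In interstitial FB the log2 difference of *Agt* between colon and small intestine was 1.11 (SE 0.27, edgeR adjusted p = 0.245). The difference between the PDGFRαhi and the interstitial contrast was 1.87 (SE 0.16, adjusted p = 4.31e-07), so that the shift was larger in PDGFRαhi FB. With Leiden clusters it had the same size, 1.87, and an adjusted p of 0.0557. In colonic ICC *Agt* had 130.0 and 71.0 CPM on 25 and 12 UMIs.

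In the main edgeR fit no member was called in the other classes between the intestines, while some alternatives called members in CD81+ FB, interstitial FB and SMC. In CD81+ FB 0 of 5 tested members were called (0.551% of all genes), 1 had an unadjusted p under 0.05 and DESeq2 called 1. In interstitial FB 0 of 7 were called (0.391%), 3 had an unadjusted p under 0.05 and DESeq2 called 1. In SMC 0 of 5 were called (0%), with 2 at an unadjusted p under 0.05, and in pericytes 0 of 3 (0%), with 1, and DESeq2 called 0 of them in both classes. Over all genes in SMC and pericytes, 756 and 135 had an unadjusted p under 0.05 and DESeq2 called 138 and 2.

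**Figure D3:**
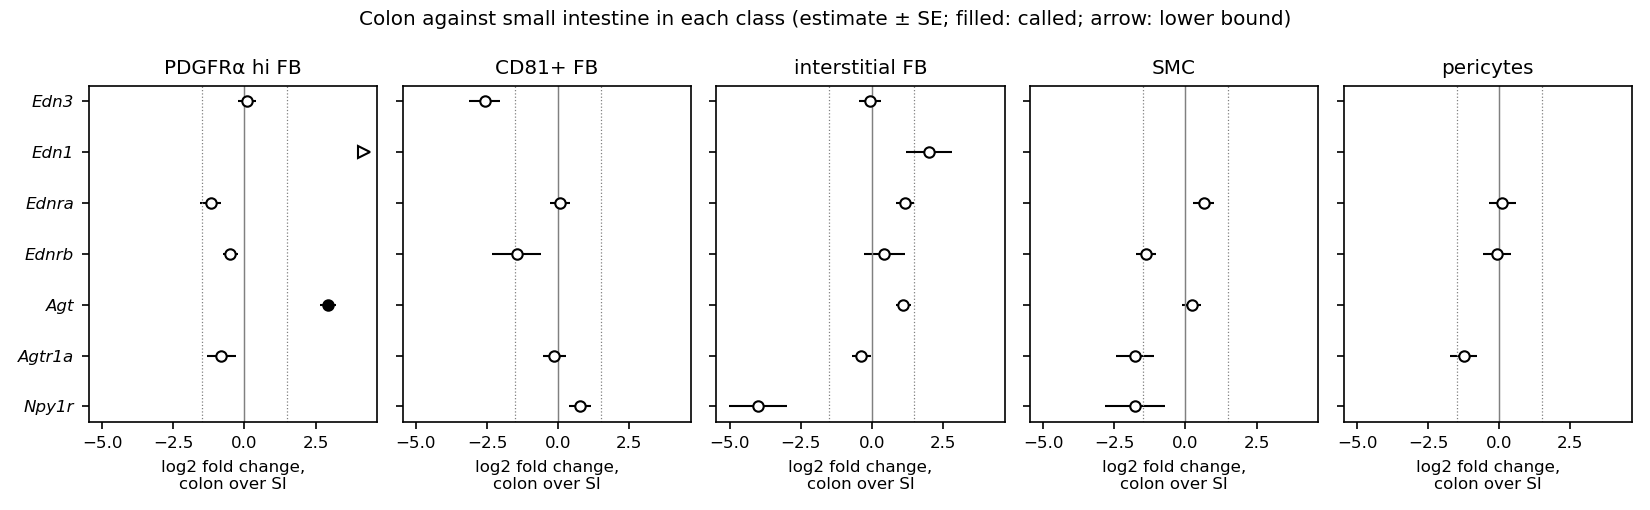
Log2 difference of colon against small intestine for each gene in each MSC class. The x axis is the edgeR estimate with its SE, and filled points were called. *Agt* in PDGFRαhi FB, at 2.95, is the only filled point, and the arrow for *Edn1* stands at its lower bound of 4.21.

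*Agtr1a*, the type 1 angiotensin receptor through which angiotensin II contracts vessels, was highest in pericytes of each library, at 258.0, 239.4, 112.8 and 93.7 CPM on 61, 7, 41 and 9 UMIs. Interstitial FB had 54.3, 44.8, 51.5 and 27.7 CPM and CD81+ FB 36.5, 34.5, 50.5 and 24.3 CPM, and those classes overlapped. SMC had 9.58, 16.7, 4.97 and 2.52 CPM and PDGFRαhi FB 4.29, 6.82, 3.77 and 2.32 CPM. SMC, with the most *Agt*, and PDGFRαhi FB thus had the least *Agtr1a* of the MSC classes in each library. On the log2 scale *Agtr1a* was higher in pericytes by 3.27 (SE 0.25, edgeR adjusted p = 1.16e-08) and lower in PDGFRαhi FB by -3.18 (SE 0.24, adjusted p = 2.74e-08) and in SMC by -2.42 (SE 0.28, adjusted p = 3.08e-06). In SMC it was -0.46 (adjusted p = 0.716) with Leiden clusters.

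The pericyte values of *Agtr1a* were higher in both small intestinal libraries than in both colonic ones, but rested on few cells, and the log2 difference of -1.25 (SE 0.49) did not pass (edgeR adjusted p = 0.974). Pericytes held 12.2%, 0.421%, 6.8% and 0.962% of all *Agtr1a* UMIs and interstitial FB 60.2%, 79.1%, 65.8% and 54.0%. The close copy *Agtr1b* can share reads with *Agtr1a*, so the split between them is uncertain. *Agtr1b* was 4.79 to 16.6 CPM in SMC.

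*Npy1r*, the Y1 receptor, was higher in CD81+ FB than in the other FB classes, at 17.0, 20.8, 23.6 and 47.2 CPM on 42, 138, 42 and 502 UMIs. PDGFRαhi FB had 16 UMIs in all 4 libraries together. Interstitial FB had 2.52, 4.12, 0 and 0.329 CPM on 14, 121, 0 and 6 UMIs, so that nearly all of these UMIs were small intestinal. SMC had 43.1, 5.0, 10.4 and 2.52 CPM, and pericytes 33.8, 0, 13.8 and 0 CPM on 8, 0, 5 and 0 UMIs. In small intestine replicate 1 both SMC and pericytes thus lay above CD81+ FB. *Npy1r* was higher in CD81+ FB than in the other MSC classes by 3.12 on the log2 scale (SE 0.60, edgeR adjusted p = 0.00129). It was lower in PDGFRαhi FB by -3.90 (SE 1.04, adjusted p = 0.0147), a call lost without small intestine replicate 1 (-3.51, adjusted p = 0.123) or colon replicate 1 (-3.50, adjusted p = 0.0911).

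Between the intestines *Npy1r* in interstitial FB differed by -3.99 (SE 1.02, edgeR adjusted p = 0.265). It passed with DESeq2 (-4.09, adjusted p = 0.0167) and with Leiden clusters (-4.40, adjusted p = 0.0486). In CD81+ FB the colonic values were the higher ones, with a log2 difference of 0.77 (SE 0.39, adjusted p = 0.646). CD81+ FB held 49.4%, 45.0%, 56.8% and 92.1% of all *Npy1r* UMIs.

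Within classes, the levels were split further by a comparison of marker UMIs in each cell, which is a description with no test, since the splits were chosen with the data known. Colonic PDGFRαhi FB with more *Nrg1* than *Sox6*, *Wif1* and *Bmp3* UMIs numbered 209 and 1143, and those with the reverse 336 and 1428. *Agt* was 800.8 and 595.9 CPM in the *Nrg1* group and 111.3 and 114.8 CPM in the other. *Edn1* was 15.5 and 30.9 CPM against 0 and 1.11 CPM. The *Nrg1* group thus carried nearly all *Edn1* UMIs of both groups, 41 of them in colon replicate 1 and 170 in colon replicate 2, against 0 and 6.

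*Edn3* had the reverse pattern, at 9.81 and 7.08 CPM in the *Nrg1* group and 90.6 and 79.1 CPM in the other. The receptors also differed, with *Ednrb* at 586.2 and 555.0 against 242.3 and 276.9 CPM and *Ednra* at 124.5 and 83.6 against 316.7 and 170.6 CPM. The ligand *Edn3* and the receptor *Ednra* were thus higher in one colonic group, and *Edn1*, *Ednrb* and *Agt* in the other. In the small intestine only 1 and 29 PDGFRαhi FB fell in the *Nrg1* group, with *Agt* at 331.5 CPM on 17 UMIs in small intestine replicate 2. The 142 and 1113 small intestinal cells of the other group had *Agt* at 38.4 and 46.2 CPM, *Edn3* at 40.7 and 60.1 CPM and *Ednrb* at 601.2 and 619.7 CPM.

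CD81+ FB were split by *Pi16* against *Grem1* UMIs. *Npy1r* was 58.6, 118.8, 76.9 and 96.6 CPM in the *Pi16* group of 37, 167, 58 and 1057 cells, and 7.63, 10.0, 4.5 and 6.62 CPM in the *Grem1* group of 215, 1664, 121 and 924 cells. The groups did not overlap in any library, and the *Pi16* group was a larger part of CD81+ FB in colon replicate 2, the library with the highest *Npy1r* in that class. *Agtr1a* had no such pattern, at 61.5, 28.8, 40.6 and 17.9 against 32.5, 34.0, 54.0 and 32.3 CPM. Among interstitial FB, cells with an *Fgfr2* UMI had *Agt* at 63.5, 121.9, 207.6 and 164.7 CPM and those without at 30.9, 49.7, 75.6 and 100.1 CPM, so the *Fgfr2* cells were higher in each library. Their median depth was also higher, at 8655, 2947.5, 9809 and 4540 against 6387, 2707, 8191.5 and 3911 UMIs.

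**Figure D4:**
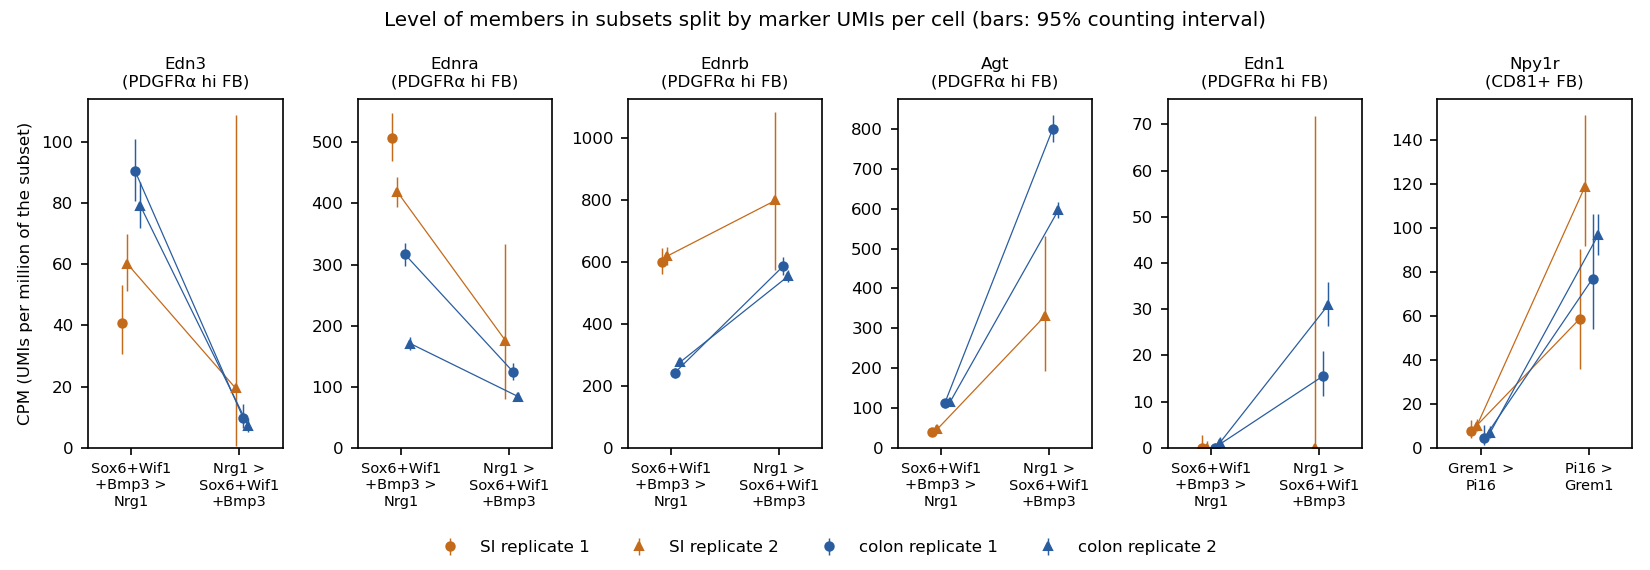
Levels in cells split by marker UMIs within a class. The y axis is CPM, with 1 point per library and bars for the 95% counting interval. In colon, *Agt* and *Edn1* were higher in PDGFRαhi FB led by *Nrg1* and *Edn3* in those led by *Sox6*, *Wif1* and *Bmp3*, and *Npy1r* was higher in CD81+ FB led by *Pi16*.

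Other genes of the pathways were read from lists chosen with earlier results known. Of the 8 other endothelin pathway genes, 3 reached 20 UMIs in a library (*Ece1*, *Ece2* and *Mme*), and *Edn2* had 2 UMIs over the 7 classes described. *Ece1*, the main endothelin-converting enzyme, was 314.5 to 372.6 CPM in PDGFRαhi FB against 31.7 to 64.4 CPM in CD81+ FB and 59.9 to 103.4 CPM in interstitial FB. It was higher in PDGFRαhi FB by 1.78 on the log2 scale (SE 0.14, edgeR adjusted p = 3.68e-08), where 1 of 2 tested genes of the list was called. *Ece2* was lower in pericytes by -2.07 (SE 0.61, adjusted p = 0.0173), on 3 UMIs, and this call was lost with DESeq2 (adjusted p = 0.0565), with Leiden clusters (0.239) and when small intestine replicate 1 (0.0574) or colon replicate 2 (0.0575) was left out.

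Of the 13 other genes of the renin-angiotensin list, 11 reached 20 UMIs. *Ren1*, renin, had 35 UMIs in CD81+ FB and 10 in interstitial FB and 0 in the other classes described. *Ace*, which makes angiotensin II, was 152.2 to 496.6 CPM in the endothelial cells of 3 libraries and at most 1.79 CPM in every MSC class. *Agtr2* had 1 UMI and *Mas1* 0. *Agt*, *Ace* and *Agtr1a* were thus each highest in another class. *Enpep*, the aminopeptidase that removes the first residue of angiotensin II, was higher in pericytes by 4.25 on the log2 scale (SE 0.49, edgeR adjusted p = 1.56e-05) and lower in PDGFRαhi FB by -2.03 and in SMC by -1.91 (adjusted p = 0.0043 and 0.0301). Colonic ICC also held *Enpep*, at 327.6 and 568.0 CPM. *Enpep* lost its PDGFRαhi call without colon replicate 2 (edgeR adjusted p = 0.0563). Its SMC call was lost without the low-count filter (0.0632), small intestine replicate 2 (0.067), colon replicate 1 (0.167) or colon replicate 2 (0.203).

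*Agtr1b* was higher in SMC by 2.45 (edgeR adjusted p = 8.44e-05) and lower in CD81+ FB by -2.31 (adjusted p = 0.00352), on 13 UMIs, and the latter was -0.45 without colon replicate 1. *Anpep* was lower in SMC by -2.64 and *Prcp* in pericytes by -2.06 (adjusted p = 1.39e-05 and 0.0014). *Atp6ap2*, the prorenin receptor, was 63.4 to 136.3 CPM across the MSC classes, and *Agtrap*, *Lnpep* and *Ctsd* were called in no comparison. Between the intestines 0 genes of this list were called by the main edgeR fit in any class.

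The neuropeptide Y list had 3 of 9 genes at 20 UMIs, and *Npy* itself had 6 UMIs over the 7 classes described, 2 of them in CD81+ FB. *Fap*, a protease related to DPP4 that can cut neuropeptide Y, was 45.5 to 96.5 CPM in CD81+ FB and 0.716 to 3.85 CPM in PDGFRαhi FB. It was higher in CD81+ FB by 3.22 on the log2 scale (SE 0.20, edgeR adjusted p = 1.67e-09) and lower in PDGFRαhi FB by -3.45 (adjusted p = 8.5e-07). *Npy4r*, the Y4 receptor, was 65.1 and 197.6 CPM in colonic ICC and at most 7.91 CPM in SMC, and *Dpp4* reached 10.1 CPM in CD81+ FB.

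Other receptors of vasoactive signals were tested in 24 of 35 cases against the other MSC classes. In PDGFRαhi FB 6 were higher (*Aplnr*, *F2rl1*, *Adrb1*, *Bdkrb2*, *F2r* and *Ramp2*) and 6 lower (*Adra1a*, *Adra1b*, *Adra2a*, *Avpr1a*, *Tbxa2r* and *S1pr3*), with a list median of -0.10 against 0.05 over all genes. *Aplnr*, the apelin receptor, was higher by 6.25 (SE 0.45, edgeR adjusted p = 1.17e-07) and *Adrb1*, the beta-1 adrenergic receptor, by 3.91 (SE 0.48, adjusted p = 1.57e-05) on the log2 scale. The calls of *Tbxa2r*, *S1pr3* and *Bdkrb2* were lost without colon replicate 1 (adjusted p = 0.265, 0.0695 and 0.276). *Bdkrb2* was also lost with DESeq2 (1.06, adjusted p = 0.1185) and *Adra2a* with Leiden clusters (edgeR adjusted p = 0.056). *F2r* came to 1.47 without small intestine replicate 2. *Ramp2* came to 1.41 when small intestine replicate 1 and 1.47 when colon replicate 2 was left out, 1.45 with doublets kept and 1.09 with Leiden clusters. In SMC 6 were higher and 0 lower, among them *Tbxa2r*, the thromboxane receptor, by 2.58 (SE 0.34, adjusted p = 3.35e-05) and *Bdkrb2* by 3.55 (SE 0.38, adjusted p = 3.2e-06). In pericytes 4 were higher and 3 lower, with *Adra2a* higher by 7.28 (SE 0.63, adjusted p = 5.31e-07) and *Avpr1a*, the vasopressin receptor of vessels, by 3.95 (SE 0.43, adjusted p = 6.12e-06). The list median in pericytes was -1.62, and -0.82 with 6 genes at 0 set to their bound. CD81+ FB had 5 higher and 3 lower and interstitial FB 3 higher and 1 lower.

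Between the intestines, *Aplnr*, *Ramp1* and *S1pr3* were lower in colonic PDGFRαhi FB by -5.18 (SE 0.40), -3.72 (SE 0.31) and -3.64 (SE 0.34) on the log2 scale (edgeR adjusted p = 0.0201, 0.0201 and 0.0254), which made 3 of 21 tested genes of the list. *S1pr3* lost its call without small intestine replicate 2 (-3.59, adjusted p = 0.0693). Of the Gq signalling genes, through which the endothelin and type 1 angiotensin receptors raise calcium, 14 to 16 of 16 were tested in the FB and SMC comparisons. *Mylk*, the myosin kinase of contraction, was higher in SMC by 3.61 (SE 0.27, adjusted p = 1e-07) and lower in CD81+ FB by -3.26 (SE 0.38, adjusted p = 1.08e-05). In CD81+ FB *Mylk* was also lower in colon by -2.23 (SE 0.24, adjusted p = 0.0454), a call lost without small intestine replicate 1 (0.0848), small intestine replicate 2 (0.179) or colon replicate 2 (0.0729).

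Genes most like each member over the 20 sums of class and library were ranked among 13463 genes by Pearson's r of log2(CPM + 1), as a description, since sums share libraries and the deep classes. They were *Ccnb2* (r = 0.923), *Cybrd1* (0.899) and *Kcng4* (0.879) for *Edn3*, and *Saa1* (0.957), *Emb* (0.949) and *Dpp6* (0.947) for *Edn1*. *Ednra* was close to *Sept9* (0.948) and *Rcsd1* (0.914), and *Ednrb* to *Cald1* (0.932), *Mrvi1* (0.926) and *Myo1e* (0.913). *Agt* was close to *Fblim1* (0.891), *Nexn* (0.884) and *Pdlim3* (0.866), *Agtr1a* to *Pcdh19* (0.92), *Rap2a* (0.894) and *Cdc42ep2* (0.885), and *Npy1r* to *Khk* (0.85) and *Nhsl1* (0.818).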

How the data were processed

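The authors sequenced sorted MSC by droplet scRNA-seq. Kits for the 3′ and the 5′ end were used, without a statement of the libraries each served. The deposited matrices hold UMI counts that are not normalized, made by the authors on mm10 with Cell Ranger 3.0.2 (replicate 1) or 3.1.0 (replicate 2) per the file headers. The submitters' processing notes also name Seurat 3. Cells needed 500 genes and 1000 UMIs, with no more than 10% of UMIs mitochondrial (Python 3.11.15, scanpy 1.11.5). Scrublet removed 11, 482, 32 and 361 doublets at a fixed score of 0.25, chosen after its automatic threshold was seen to find 1 in small intestine replicate 2.

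Classes were gated per cell, per 10000 UMIs. FB needed at least 50 of the pan-FB markers. PDGFRαhi FB needed at least 15 of their markers from 2 genes, and CD81+ FB a share of at least 0.6 of the CD81+ over the CD81+ and interstitial markers, with a key marker present. SMC needed at least 15 from 2 genes, and pericytes at least 25 from 3 genes with pan-FB markers under 80. Endothelial, immune and Cajal cells needed 2 markers. Counts were summed per library and class, leaving out sums of under 10 cells, and tested with edgeR 4.0.16 (R 4.3.3; filterByExpr, TMM, robust quasi-likelihood), adjusted over all genes by Benjamini-Hochberg. Gate genes were left out of the class comparisons. The test between contrasts called at an adjusted p under 0.05 alone. DESeq2 1.42.0 was an alternative, as were other size factors, no low-count filter, 1000 genes per cell, doublets kept, Leiden clusters per library, a replicate block and leaving out each library. Scripts were tested on simulated data. With 2 libraries per group, p-values measure only the spread between these libraries, which may be technical. The members and gene lists were chosen with earlier results of these data known. All members were named. Genes of the lists were named when called or when they are a ligand, receptor or enzyme with at least 20 UMIs in a library, and the 3 nearest genes of each member had at least 50 UMIs. Some genes that this rule selects are not reported here.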

Additional observations from a re-analysis of the deposited data

Results flagged for a closer look

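The intestine difference (colon against small intestine) differed between PDGFRαhi FB and interstitial FB for 4 of the 7 members, by a test of the difference itself. The log2 values were -2.30 for *Ednra*, 1.87 for *Agt*, 7.71 for *Edn1* and 3.74 for *Npy1r* (edgeR adjusted p = 3.67e-08, 4.31e-07, 0.0175 and 0.0387), against 9.75% of all genes. *Ednra* passed under each of the 10 alternatives tried and *Agt* under all but Leiden clusters. The *Edn1* value rests on 0 UMIs in small intestinal PDGFRαhi FB, is no measure of size, and was lost without small intestine replicate 2 (adjusted p = 0.184). *Npy1r* had 4 and 12 UMIs in PDGFRαhi FB of the 2 intestines, and its call was lost under 7 of the 10 alternatives, with adjusted p of 1.0 without colon replicate 2.

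Members were also seen in cell types that the comparisons did not use, above the floor of 3 UMIs. In endothelial cells *Edn1* was 76.1 CPM (small intestine replicate 1), 110.1 CPM and 125.8 CPM (colon replicates 1 and 2), and *Ednrb* was 68.7, 151.3 and 192.0 CPM in the same libraries. *Ednra* was 18.7 and 39.7 CPM in colonic endothelial cells, and *Agt* was 5.57 CPM in small intestine replicate 1 and 66.2 CPM in colon replicate 2. In colonic ICC *Edn3* was 41.6 and 183.4 CPM, *Agt* 130.0 and 71.0 CPM, and *Ednra* 26.0 CPM in colon replicate 1 on 5 UMIs.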

How the results depend on the processing

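With 2 libraries per group, the counts of genes called between the intestines moved with the processing, and the cause was not tested. In PDGFRαhi FB the count was 170, and 638 without the low-count filter, 525 with DESeq2, 100 with doublets kept, 880 with the replicate block and 46 to 343 when a library was left out (46 without small intestine replicate 2). In CD81+ FB it was 62, and 435, 237, 103 with Leiden clusters, 427 with the block and 0 to 181 (0 without small intestine replicate 2). In interstitial FB it was 50, and 351, 443, 113 with Leiden clusters, 719 with the block and 0 to 136 (0 without either small intestinal replicate). In SMC it was 0, and 215, 138, 51 with Leiden clusters, 459 with the block and 4 to 79. In pericytes it was 0, and 8, 2, 37 at 1000 genes per cell, 4 with Leiden clusters and 0 to 35. The test between contrasts gave 1243, and 764 with DESeq2.

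Replicate numbers are shared by the groups, but nothing in the labels says that a number marks one experiment or the same mice, so the block is an alternative. Deviations of libraries with the same number correlated across genes by 0.71 in PDGFRαhi FB, 0.64 in CD81+ FB, 0.79 in interstitial FB, 0.61 in SMC and 0.38 in pericytes. With the block, *Edn1* in PDGFRαhi FB, *Edn3* and *Ednrb* in CD81+ FB, *Npy1r* and *Edn1* in interstitial FB and *Agtr1a* and *Npy1r* in SMC also passed.

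Signs turned only for differences that had not passed in the main fit, with *Aplnr* in SMC as the exception (-3.59 with Leiden clusters). *Edn3* in CD81+ FB against the other classes was 1.41 at 1000 genes per cell and 1.99 with Leiden clusters, in interstitial FB 1.16 and 1.36, and in SMC 1.19 at 1000 genes. *Edn3* was 0.19 with DESeq2 and 0.38 with Leiden clusters in the test between contrasts, and 0.0068 in interstitial FB between the intestines with the block. *Ednra* between the intestines was -0.51 with Leiden clusters and -0.077 with the block in CD81+ FB, and -0.13 in pericytes at 1000 genes. *Ednrb* in pericytes was 0.066 without the filter and 0.38 with Leiden clusters. When a library was left out, these differences spanned 0. The log2 range between the intestines was *Edn3* in PDGFRαhi FB -0.13 to 0.38, *Edn3* in interstitial FB -0.58 to 0.28, *Ednra* in CD81+ FB -0.38 to 0.46, *Ednra* in pericytes -0.17 to 0.36, *Ednrb* in CD81+ FB -2.93 to 0.39, *Ednrb* in interstitial FB -0.85 to 1.12, *Ednrb* in pericytes -0.53 to 0.34, *Agt* in SMC -0.013 to 0.46, *Agtr1a* in CD81+ FB -0.70 to 0.32 and *Npy1r* in SMC -3.08 to 0.38. The log2 range against the other classes was *Edn3* in CD81+ FB -0.99 to 1.01, *Edn3* in interstitial FB -1.06 to 1.48 and *Edn3* in SMC -0.68 to 0.76. The log2 range in the test between contrasts was *Edn3* -0.43 to 0.71, *Ednrb* -1.58 to 0.26 and *Agtr1a* -0.79 to 0.18.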
